A study of Mus musculus with 25 samples.

Results

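The paired immunoglobulin-like and Fc receptors were followed through 25 libraries of cells sorted from mouse lung and skin, as 10 named genes, of which 9 have a row under their own identifier among the 11866 genes of the lung table and the 12661 genes of the skin table. The set holds the paired receptor genes Pira2 and Pirb, the related receptor genes Tarm1 and Lilrb4a, the IgG receptor genes Fcgr1, Fcgr2b, Fcgr3 and Fcgr4, and the signalling adaptor genes Fcer1g and Tyrobp. The genes were chosen by name with their levels and their differences between depleted and control macrophages already known, so those differences are given as descriptions without a test. All mice were C57BL/6 and carried the Rosa26_DTR allele, a receptor for diphtheria toxin that Cre switches on. Neutrophil-depleted mice (NP) carried Mrp8_CRE, whose promoter is that of S100a8 and is active chiefly in neutrophils and less so in some monocytes. Control mice (WT) were Mrp8_WT. Both received diphtheria toxin at 10 µg per kg into the peritoneum for 7 days, so the controls saw the toxin too, and ages are not given here. Lung gave 3 depleted and 3 control libraries of interstitial macrophages and 3 depleted and 3 control libraries of fibroblasts. Skin gave 4 depleted and 3 control libraries labelled macrophages, and 3 depleted and 3 control libraries of fibroblasts. Lung macrophages were sorted as CD45+ cells positive for CD68 and F4/80, with high CD11b and no CD11c, and skin macrophages as CD45+ cells positive for CD11b, CD68 and F4/80. Fibroblasts were PDGFRA+ cells without CD45, CD31 or EPCAM, and in skin CD90.1+ as well. The labels do not say that the libraries of a group came from separate animals, so an SD or a p-value covers only the spread between these libraries.

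These receptors come in activating and inhibitory versions. The activating ones, which include PIR-A proteins, TARM1 and the receptors encoded by Fcgr1, Fcgr3 and Fcgr4, have short tails and signal through an adaptor that carries an immunoreceptor tyrosine-based activation motif (ITAM). That adaptor is the FcR gamma chain, encoded by Fcer1g. DAP12, encoded by Tyrobp, serves other receptors such as those of the TREM family in the same way, and Syk kinase docks on both adaptors. The inhibitory ones, PIR-B from Pirb, FcγRIIB from Fcgr2b and gp49B from Lilrb4a, carry inhibitory motifs (ITIMs) that recruit the phosphatases SHP-1 or SHIP-1. In macrophages the balance of both kinds sets the response to immune complexes, and PIR receptors bind MHC class I molecules.

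Values are the normalised signal of the deposited tables, which is linear. A single estimated read was worth 2.997 to 6.81 units in lung libraries and 0.0371 to 0.162 units in skin libraries, and lung libraries held 124075 to 385923 estimated reads and skin libraries 6553115 to 27259903. Both tables were normalised separately, so levels are compared within a table and only ratios within a library are set across organs. Gate genes fit the sort labels in lung, where Cd68 stood at 1281 to 1422 in depleted macrophages and 1078 to 1464 in control macrophages, against 5.18 to 30.0 in fibroblasts, while Pdgfra stood at 555 to 761 in depleted and 575 to 908 in control fibroblasts. In skin, control libraries 1 and 5 of the macrophage group did not match their label: the summed signal of 13 macrophage markers was 60.4 to 67.1 in them, against 25027 in control 3 and 26630 to 34972 in the depleted libraries, and that of 12 fibroblast markers was 87103 to 98226. Control 3 is therefore the only skin control with a macrophage profile, and each member's skin macrophage fold change is given with and without the other two. Control library 5 is named MFIBRO in its title, and only its cell type field says macrophages. In bulk samples, fewer cells of a type and less RNA per cell cannot be told apart.

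The genes lie in a few clusters of the mm10 genome (GENCODE release M21 coordinates, GRCm38). Tarm1 (chr7:3486500-3502624), Pirb (chr7:3711409-3720391) and Pira2 (chr7:3836812-3845051) are on the minus strand of chromosome 7, beside the relative Lilra6 (chr7:3908280-3915503). Fcgr2b (chr1:170958617-170976547), Fcgr4 (chr1:171018920-171029761), Fcgr3 (chr1:171051174-171064935) and Fcer1g (chr1:171229572-171234365) lie together on chromosome 1. Fcgr1 is at chr3:96282909-96293969 and Tyrobp at chr7:30413760-30417585. Lilrb4a (chr10:51490956-51496611) has no value under its own identifier. A row annotated as Gm49339 (chr10:51480612-51496613) spans Lilrb4a and its neighbour Lilr4b, and 98.63% of its 61-base words also occur in Lilrb4a, so it is described only as the Gm49339 row. Reads were 61 bases long, and of the words of that length in Pira2 transcripts 90.99% also occur in other genes, 79.4% in Gm15922 alone. For Pirb the share was 34.22%, for Fcgr2b 9.68% and for Fcgr3 8.18%, while Tarm1, Fcgr1, Fcgr4, Fcer1g and Tyrobp shared none. The Pira2 values are therefore uncertain as to which PIR-A copy they count, and the deposited reads were estimates in which shared reads could be split. Strandedness is not stated, so the antisense gene Gm38204 cannot be told apart from Fcgr2b over the 96 words that both share. Gm44165, antisense at Tarm1, shares no such word with Tarm1 transcripts on either strand.

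The promoters of the PIR cluster show how close its members are, and those of 3 IgG receptor genes carry the same short motif near an annotated start. The windows are from RefSeq (GRCm38.p6), given 5′ to 3′ on the gene's own strand, with the purine-rich motif GAGGAA, which occurs in sites of the myeloid factor PU.1, and its reverse complement TTCCTC in capitals. The first 3 windows are the 250 bases before the start of Pira2 (chr7:3845052-3845301, minus strand), Pirb (chr7:3720383-3720632, minus strand) and Lilra6 (chr7:3915502-3915751, minus strand).
Pira2: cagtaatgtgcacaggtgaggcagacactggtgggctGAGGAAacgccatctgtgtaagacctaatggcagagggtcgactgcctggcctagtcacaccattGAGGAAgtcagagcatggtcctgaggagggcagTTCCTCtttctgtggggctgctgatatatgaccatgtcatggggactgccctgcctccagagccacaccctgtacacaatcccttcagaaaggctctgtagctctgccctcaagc
Pirb: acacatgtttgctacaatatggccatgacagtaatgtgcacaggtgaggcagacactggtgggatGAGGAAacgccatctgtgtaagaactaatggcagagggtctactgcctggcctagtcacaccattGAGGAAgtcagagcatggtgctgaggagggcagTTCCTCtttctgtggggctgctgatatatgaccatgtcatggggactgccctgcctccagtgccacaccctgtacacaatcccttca
Lilra6: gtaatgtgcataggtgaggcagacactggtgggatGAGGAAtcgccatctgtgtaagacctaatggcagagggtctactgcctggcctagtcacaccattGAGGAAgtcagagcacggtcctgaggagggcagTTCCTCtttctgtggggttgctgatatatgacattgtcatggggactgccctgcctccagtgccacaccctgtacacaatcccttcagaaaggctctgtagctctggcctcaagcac
The 70 bases next to the RefSeq start follow for Fcgr1 (chr3:96293970-96294039, minus strand), Fcgr3 (chr1:171059395-171059464, minus strand) and Fcgr4 (chr1:171018856-171018925, plus strand). The Fcgr3 window lies inside the GENCODE span of the gene given above, so the annotations differ on its start. Another RefSeq window of Fcgr3 (chr1:171059404-171059653) held the match from 6 bases before its start, against 15 in the window printed here.
Fcgr1: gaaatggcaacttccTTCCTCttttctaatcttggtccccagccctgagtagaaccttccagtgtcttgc
Fcgr3: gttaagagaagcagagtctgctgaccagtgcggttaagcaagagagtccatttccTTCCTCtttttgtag
Fcgr4: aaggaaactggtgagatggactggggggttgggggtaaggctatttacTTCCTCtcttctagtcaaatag

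Over the aligned bases the Pira2 and Pirb windows were 97.75% identical, the Pira2 and Lilra6 windows 95.97% and the Pirb and Lilra6 windows 96.36%. Each of the 3 held the motif 3 times, with the same spacing between matches in all of them. Of the 8 member genes with a RefSeq window, 6 held at least 1 match, and Fcer1g and Fcgr2b held none. Of 32851 mouse promoter windows of the same length 23.25% held a match, on either strand. A match is a description of the letters and not of a bound site.

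Lung macrophages held reads of all 9 members, except that depleted library 2 held none of Tarm1. Fcgr1 and Fcgr2b were higher in each depleted library than in any control, while the adaptor genes overlapped between the groups. Fcgr1, the high-affinity IgG receptor gene, was at 1.74 times and Fcgr2b at 1.46 times the control level on the fitted scale. With limma over all genes, 0 of 9 members passed an adjusted p below 0.05 with or without voom weights. Without those weights, 0.497% of all genes (59 of 11866) were called. Below an unadjusted 0.05 were 3 of 9 members and 942 of all 11866 genes. Because these differences helped to choose the genes, nothing is read from those counts.

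Among the inhibitory receptors, Fcgr2b had a signal of 915, 929 and 1041 in the depleted libraries and 480.1, 728 and 804 in the controls, a log2 fold change of 0.55 ± 0.25 (SE, n = 3 each). The groups did not overlap. Pirb had 164, 195 and 147 in depleted libraries and 145, 128 and 152 in controls, a log2 fold change of 0.24 ± 0.30. Here the groups overlapped, with depleted library 2 the highest of all. The Gm49339 row stood at 479, 309 and 394 in depleted libraries and at 218, 396 and 548 in controls, a wide overlap.

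Among the activating receptors, Fcgr1 had 95.4, 77.6 and 103 in depleted macrophages and 51.9, 61.1 and 44.5 in control macrophages, a log2 fold change of 0.80 ± 0.39. Each depleted library was above each control, on 12 to 17 estimated reads a library in depleted and 7 to 19.9 in control macrophages. Fcgr3, which encodes the low-affinity activating receptor for IgG, had 2513, 1889 and 2164 in depleted libraries and 948, 1818 and 2408 in controls, with a log2 fold change of 0.44 ± 0.27. Control library 1 was the low one, and the groups overlapped. Fcgr4, whose product binds IgG2 subclasses, had 108, 158 and 109 in depleted libraries and 174, 88.4 and 252 in controls, with a log2 fold change of -0.35 ± 0.34. The controls spanned the depleted libraries on both sides. Fcgr1 and Fcgr2b made 2 of 9 members whose depleted libraries all lay above the controls, where 6.21% of all genes did so, and no member lay wholly below them, where 6.02% of all genes did.

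Pira2 had 58.5, 62.9 and 23.4 in depleted macrophages and 38.4, 28.2 and 52.4 in control macrophages, a log2 fold change of 0.20 ± 0.51. It rested on 22.1 estimated reads in all depleted libraries together and on 25.2 in the controls, the ranges overlapped, and its sign turned in 3 of 16 alternative settings. Tarm1, a collagen-binding receptor gene of the same locus, had 15.4, 3.10 and 26.5 in depleted libraries and 52.3, 25.5 and 32.7 in controls, with a log2 fold change of -1.56 ± 0.76. Depleted library 2 held 0 estimated reads of it, where 3 reads would give a signal of 21.7, and depleted library 3 lay above control library 2. At 6 against 24.1 estimated reads in all, Tarm1 was the member with the largest lung fold change in size and the largest SE. Without depleted library 2 its log2 fold change was -0.77.

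The adaptor genes had the highest signal per kilobase of exon among the members in each lung macrophage library. Fcer1g had 3253, 3990 and 3855 in depleted libraries and 4097, 3452 and 4157 in controls, a log2 fold change of -0.08 ± 0.27. Tyrobp had 1683, 2070 and 2234.5 in depleted libraries and 2285, 1709.5 and 3430 in controls, a log2 fold change of -0.26 ± 0.26. For both genes the groups overlapped.

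**Figure D1:**
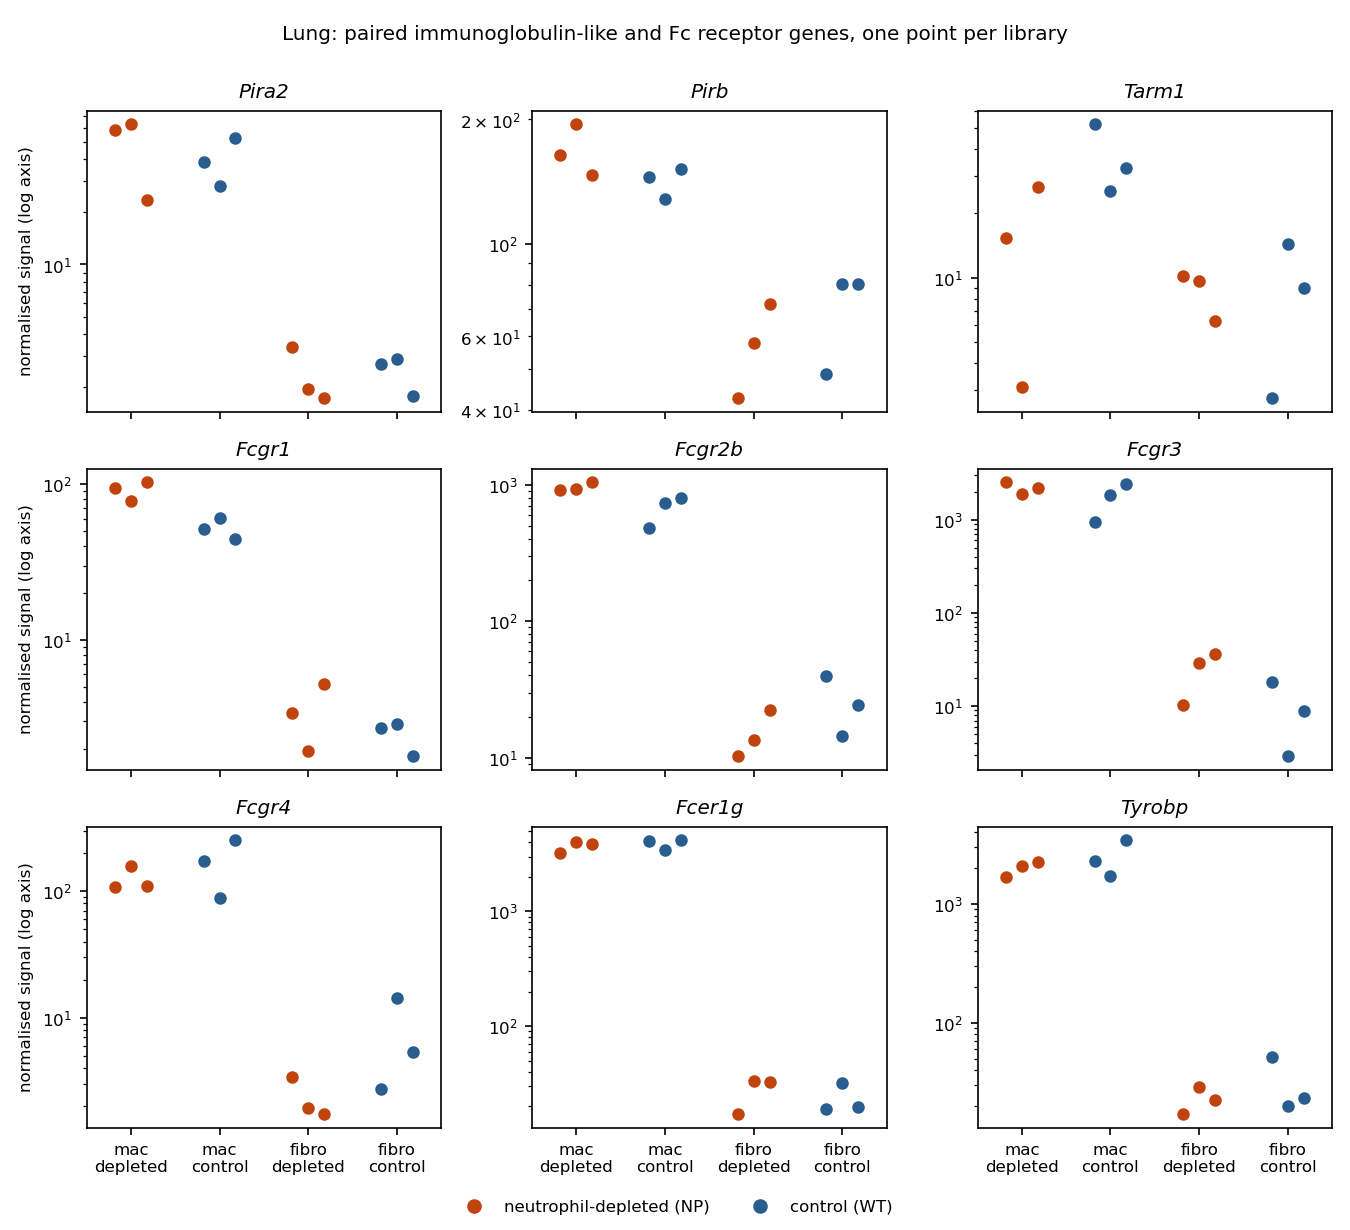
Normalised signal of the 9 members in lung libraries on a log axis, 1 point per library, with depleted groups left of their controls. Fcgr1 and Fcgr2b separate depleted from control macrophages, and all members except Tarm1 lie above every fibroblast library in every macrophage library.

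Markers of several other cell types moved with the lung comparison. The summed signal of 17 neutrophil markers was 2563 to 2841 in depleted and 11403 to 22542 in control macrophage libraries, with 11 of 17 lower at an adjusted p below 0.05 (limma). S100a8 stood at 895 to 1175 in depleted and 3741 to 10656 in control libraries, and Ly6g, a neutrophil-defining gene, at 18.1 to 42.3 in depleted and 16.3 to 27.4 in control libraries. The 13 macrophage markers summed to 38654 to 43972 in depleted and 17349 to 30800 in control libraries, and the 6 B and plasma cell markers to 248 to 760 in depleted and 829 to 2235 in control libraries. Mouse neutrophils also express members of the set, among them Pirb, Tarm1, Fcgr3, Fcgr4, Fcer1g and Tyrobp. Epithelial markers, 8 of 10 with a row, summed to 11189 to 25144 in depleted and 2310 to 9162 in control libraries. Mast cell markers, 2 of 10 with a row, summed to 24.8 to 55.4 in depleted and 122 to 306 in control libraries, with 1 called lower. Monocyte markers, 10 of 10, summed to 8876 to 14707 in depleted and 7340 to 13153 in control libraries, with 1 called lower. The part of these markers in the members' values was not tested.

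Among 20 other activating receptor genes that couple to such adaptors, 2 fell in depleted lung macrophages at an adjusted p below 0.05 and none rose. Of these 20, 17 had a negative and 3 a positive log2 fold change, with a median of -0.73 against 0.04 over all genes. Clec4d, a C-type lectin receptor gene for mycobacterial glycolipid, had 52.3, 59.0 and 61.8 in depleted libraries and 210.2, 187 and 322 in controls. It fell by 1.999 ± 0.33 on the log2 scale (limma adjusted p = 0.000173). Every depleted library was below every control, and it passed in 5 of the 6 fits that left out 1 library, with an adjusted p of 0.0695 without control library 3. Trem1, a DAP12-coupled amplifier of inflammation, had 76.9, 40.3 and 32.4 in depleted libraries and 92.7, 190.3 and 302 in controls. It fell by 1.89 ± 0.39 (adjusted p = 0.00645), again without overlap, but with an adjusted p of 0.526 without control library 2 and 0.498 without control library 3. Both genes are expressed in mouse neutrophils, and the neutrophil marker sums given above ran the same way, whose part was not tested. Sirpb1b, a signal-regulatory protein gene, had 34.6, 78.6 and 51.6 in depleted and 219, 69.3 and 160.0 in control libraries, a log2 fold change of -1.35 (adjusted p = 0.165). Cd300ld had a value of -1.16 (adjusted p = 0.274).

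The other parts of the system gave a single call. Of 12 genes tested from the list of ligands, which includes antibody chains, 1 fell. It was Igkc, the immunoglobulin kappa light chain constant region, which lies outside the Fc part that Fc receptors bind. Igkc had 268, 46.5 and 333 in depleted and 323, 924 and 1282 in control macrophages (-2.16 ± 0.41, limma adjusted p = 0.00199). Depleted library 3 lay above control library 1, and the adjusted p was 0.597 without control library 2 and 0.518 without control library 3. Without depleted library 2 its log2 fold change was -1.28 (adjusted p = 0.0384). Igkc is itself on the list of B and plasma cell markers, whose sums are given above. Ighm, the IgM heavy chain gene, stood at -0.75, the fibronectin gene Fn1 at 0.70 and the collagen gene Col2a1 at 0.78. None of 15 other ITIM-bearing receptor genes was called (median -0.39, 4 below an unadjusted 0.05). Clec4a2, the gene of the inhibitory lectin DCIR, had the lowest p among them, with 299, 373 and 369 in depleted and 151, 228 and 211 in control libraries, a log2 fold change of 0.83 (adjusted p = 0.269). Clec12a stood at 0.55, Cd300lf at -0.79 and Pilra at -0.57. None of 33 kinases, adaptors and effectors downstream of ITAMs was called (median -0.21, 7 below 0.05). Ncf1, an NADPH oxidase subunit gene, had -1.16 (adjusted p = 0.108), and Lat2, a membrane scaffold for Syk signalling, had 1.39 (adjusted p = 0.138). Skap2, an adaptor of integrin signalling, had -0.67. The list of phosphatases and brakes recruited by ITIMs also holds other brakes, such as Cblb and Pag1. None of its 13 tested genes was called (median -0.01, 3 below 0.05). Inpp5d, which encodes SHIP-1, stood at 0.81, Dok2 at 1.48, Cblb at 1.60 and Pag1 at -1.53. None of 6 other Fc receptor genes was called (median -0.70, 2 below 0.05), with Fcer2a at -1.82, Fcmr at -1.63 and Fcrla at -1.42. Neither relative with a row was called, with Lilra6 at 0.05 and Lilra5 near 0 (-0.0027). Over all 7 lists, 3 of 101 genes were called, all lower, and 70 had a negative sign, where of all 11866 genes 59 were called, 51 of them lower, and 5664 had a negative sign. Below an unadjusted limma p of 0.05 were 27 of the 101 list genes and 942 of all 11866 genes. Voom weights called the same 3 genes.

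**Figure D2:**
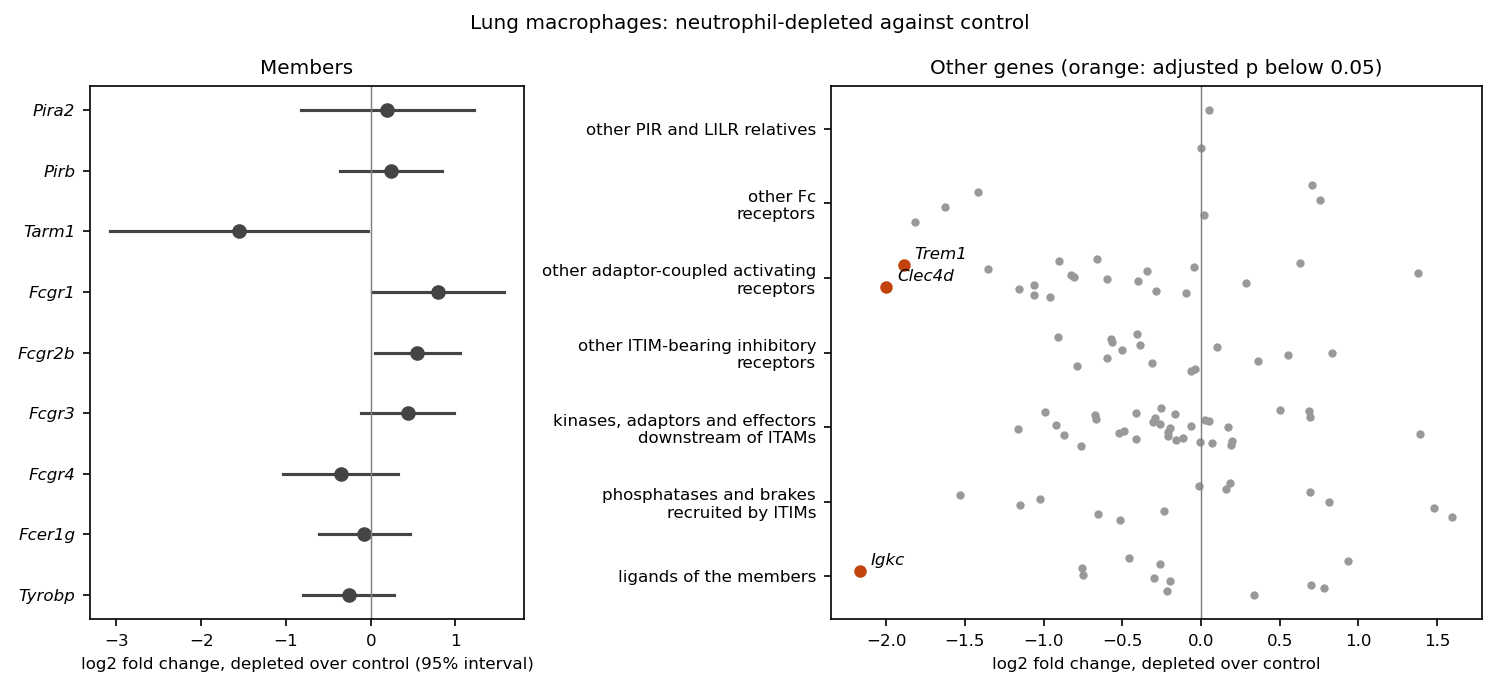
Log2 fold changes of depleted over control lung macrophages, with each member and its 95% interval before any adjustment on the left, and the other genes of the receptor system by list on the right. Clec4d, Trem1 and Igkc, in orange, passed an adjusted p below 0.05, and the other list genes lie between -1.82 and 1.60.

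Depleted skin macrophages carried more PIR-A-type signal than the 1 control library with a macrophage profile. Pira2 was at 15.8 times, Tarm1 at 9.85 times and Pirb at 2.46 times the level of control 3, while Fcer1g, Tyrobp, Fcgr3 and Fcgr2b had log2 fold changes between -0.30 and 0.32. With 1 such control there is no spread among controls: the SE below assumes that control 3 varies like the depleted libraries. limma called 0 of 9 members as labelled (0.0% of 11716 genes), with 8 of 9 below an unadjusted 0.05 and 2458 genes in all. Against control 3 alone it called 0 of 9 (0.0% of 12028 genes), with 3 of 9 and 834 genes below 0.05. A mean more than 4-fold above control 3 was seen for 2 of 9 members and for 3.92% of all genes. The depleted libraries all lay above control 3 for 6 of 9 members and 24.1% of all genes, and all below it for none and 24.5%. The members were chosen on these values, so the counts carry no test.

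Pira2 had 218, 296, 192 and 557 in depleted libraries 1, 2, 3 and 5 and 17.3 in control 3, a log2 fold change of 3.99 ± 0.54. Every depleted library was above control 3, on 1349 to 8146 against 287 estimated reads. The neighbouring PIR rows gave 29.8, 45.1, 33.9 and 85.0 in depleted libraries and 12.6 in control 3 for Lilra6 (1.74 ± 0.69), and log2 fold changes of 1.60 for Gm14548 and 3.29 for Gm15448. As labelled, with all 3 controls, these were 4.23 for Lilra6, 5.19 for Gm14548 and 4.38 for Gm15448. These rows share sequence with Pira2 and are not separate evidence. Pirb had 386, 297, 201 and 409 in depleted libraries and 126 in control 3, a log2 fold change of 1.30 ± 0.40. Tarm1, which shares no 61-base word with another gene, had 118, 58.2, 75.8 and 48.15 in depleted libraries and 6.29 in control 3, a log2 fold change of 3.30 ± 0.59. Control 3 was below all depleted libraries for each of them.

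Fcgr1 had 56.7, 57.7, 72.1 and 86.8 in depleted libraries and 36.4 in control 3, a log2 fold change of 0.87 ± 0.44. The Gm49339 row had 985, 905, 928.5 and 1182 in depleted libraries and 627 in control 3 (0.66 ± 0.27). Fcgr2b was the most even of the set, with 1278, 1285, 1341 and 1263 in depleted libraries and 1081 in control 3 (0.26 ± 0.25). Fcgr3 had 2407, 2431, 2196 and 2566 in depleted libraries and 1919 in control 3 (0.32 ± 0.28). In each case control 3 was the lowest, by a margin that was small for Fcgr2b and Fcgr3. Fcgr4 was low and uneven, with 5.74, 1.41, 17.2 and 16.4 in depleted libraries and 12.6 in control 3 (-0.69 ± 1.45). Fcer1g had 2457, 2174.5, 2969.5 and 2102.5 in depleted libraries and 2893.5 in control 3 (-0.27 ± 0.32). Tyrobp had 1159, 1311, 1620 and 1168 in depleted libraries and 1606 in control 3 (-0.30 ± 0.30). Control 3 fell inside the depleted range for all of these.

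Control libraries 1 and 5, with their fibroblast profile, held 0.133 and 0.227 of Pira2, 0.799 and 2.02 of Fcer1g, and 25.7 and 41.3 of Fcgr2b. As labelled, with all 3 controls, the log2 fold changes were 6.62 ± 0.91 for Pira2, 5.64 ± 1.35 for Pirb, 5.11 ± 0.80 for Tarm1, 6.58 ± 2.07 for Fcer1g and 6.46 ± 2.04 for Tyrobp. Those of the IgG receptor genes were 4.31 ± 1.15 for Fcgr1, 3.60 ± 1.04 for Fcgr2b, 6.27 ± 1.86 for Fcgr3 and 1.81 ± 1.16 for Fcgr4, and the Gm49339 row had 6.55 ± 1.78. Those values set macrophages against a mostly fibroblast group. The signs of Fcer1g, Tyrobp and Fcgr4 turned once libraries 1 and 5 were left out. Without control 3, so that libraries with a fibroblast profile were the only controls, limma called 9 of 9 members and 23.8% of all genes, and a model of all 4 skin groups called 8 of 9, with Fcgr4 as the exception, and 8.32% of all genes. In control 3 most other marker sums also lay outside the range of the depleted libraries. Those of neutrophil and dendritic cell markers lay inside it. Dendritic cell markers, 6 of 9 with a row, summed to 461 to 1113.5 in depleted libraries and 930 in control 3. Monocyte markers summed to 1692 to 3010.5 in depleted libraries and 1075 in control 3, fibroblast markers to 251 to 1324 in depleted libraries and 2086 in control 3, and mast cell markers to 11.1 to 110 in depleted libraries and 412 in control 3, with 2 to 4 of 8 mast cell markers at 0 in depleted libraries and none in control 3. Neutrophil markers, 9 of 20 with a row, summed to 190 to 352 in depleted libraries and 342 in control 3. Epithelial markers, 6 of 10 with a row, summed to 731 to 2586.5 in depleted libraries and 4459 in control 3. Natural killer cell markers, 3 of 9, summed to 14.3 to 73.2 in depleted libraries and 119 in control 3, and T cell markers, 6 of 9, to 132 to 205 in depleted libraries and 222 in control 3. B and plasma cell markers, 2 of 9, summed to 292 to 484 in depleted libraries and 253 in control 3, and endothelial markers, 4 of 7, to 22.9 to 43.0 in depleted libraries and 19.5 in control 3. The part of these in the members' values was not tested.

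None of the 95 other genes of the receptor system tested was called against control 3 (17 below an unadjusted 0.05), nor of the 94 tested as labelled (60 below 0.05, also 60 with voom weights). A model of all 4 skin groups called 40 of the 94, where it called 8.32% of all genes. Leaving out control 3, so that only controls with a fibroblast profile remained, called 67 of 94, where it called 23.8% of all genes. Against control 3, 63 had a positive and 32 a negative log2 fold change, with a median of 0.37 against -0.10 over all genes. As labelled, 80 had a positive and 14 a negative one, with a median of 2.93 against -0.09 over all genes. Against control 3, the ITAM-downstream genes had a median of 0.46, the ITIM-bearing receptors 0.33, the adaptor-coupled receptors 0.20 and the list of ligands -0.41.

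**Figure D3:**
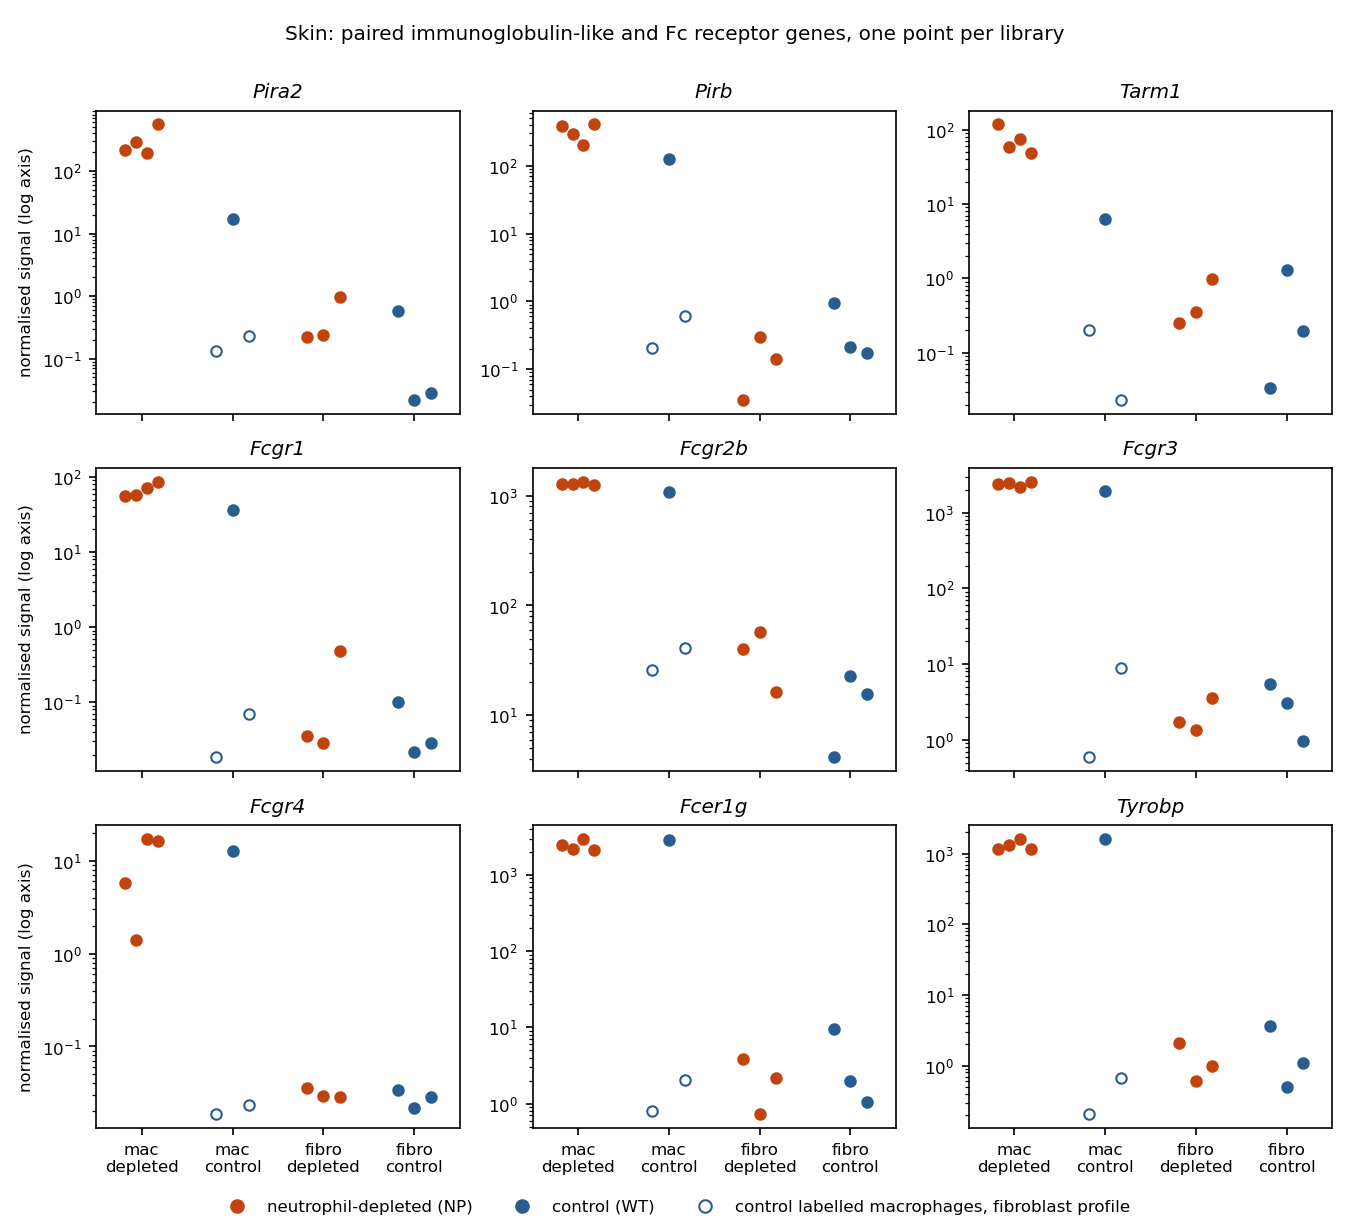
Normalised signal of the 9 members in skin libraries on a log axis, 1 point per library, with depleted groups left of their controls. Open points are control libraries 1 and 5, labelled macrophages but with a fibroblast profile, and they lie below control 3 for every member. Pira2 in depleted macrophages spans 192 to 557, against 17.3 in control 3.

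Ratios within a library set the receptors against each other without regard to scaling, using signal per kilobase of exon. Pira2 over Pirb, activating over inhibitory, was 0.625 to 1.50 in depleted skin macrophages and 0.151 in control 3, and it was 0.175 to 0.394 in depleted and 0.242 to 0.380 in control lung macrophages. Of the libraries with a macrophage profile, only the depleted skin libraries were above the lung range, with the caveat on shared PIR sequence above. Fcgr2b over Fcgr3, the inhibitory over the activating low-affinity IgG receptor, was 0.210 to 0.261 in depleted skin macrophages and 0.241 in control 3, and 0.156 to 0.210 in depleted and 0.143 to 0.216 in control lung macrophages. Depleted and control libraries overlapped in lung, and control 3 lay inside the depleted range in skin. Fcgr4 over Fcer1g was 0.0168 to 0.0236 in depleted and 0.0153 to 0.0362 in control lung macrophages, and 0.000385 to 0.00466 in depleted skin macrophages and 0.00260 in control 3, so every skin library was below every lung library. Tyrobp over Fcer1g was 0.648 to 0.726 in depleted and 0.620 to 1.03 in control lung macrophages, and 0.591 to 0.756 in depleted skin macrophages and 0.695 in control 3. In control libraries 1 and 5, with their fibroblast profile, Pira2 over Pirb was 0.416 to 0.711 on at most 12.5 estimated reads of either gene, and Fcgr2b over Fcgr3 was 1.996 to 18.5.

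**Figure D4:**
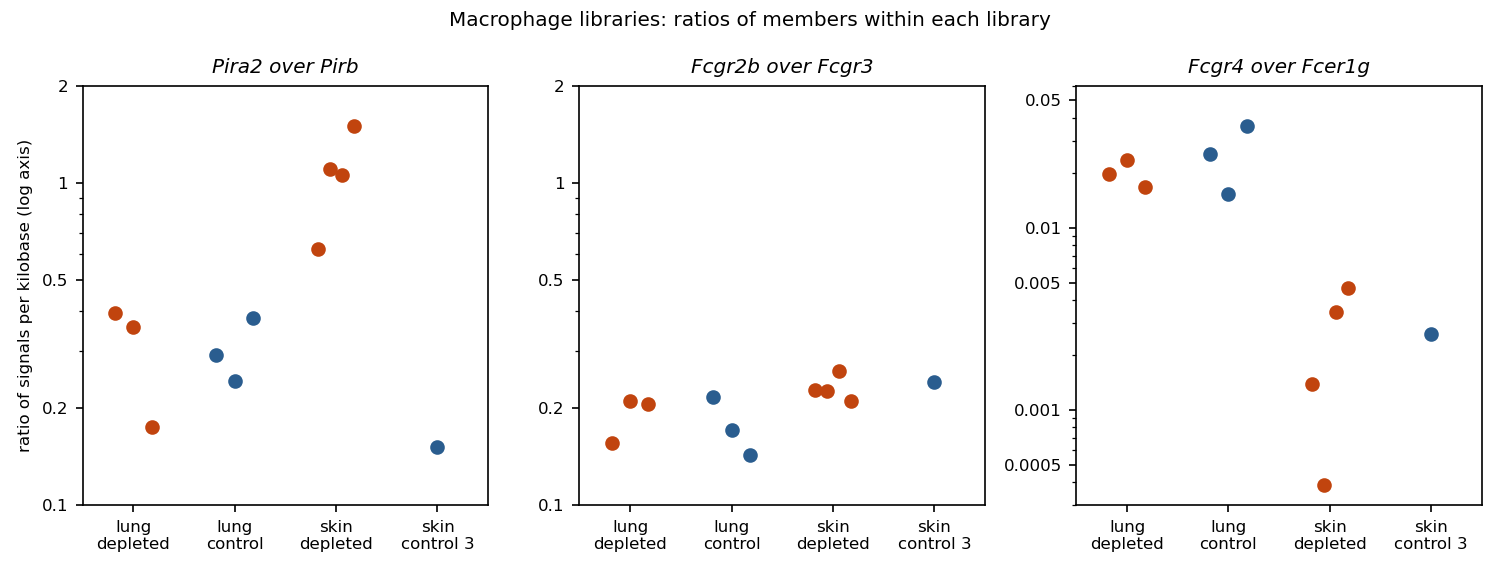
Ratios of signal per kilobase of exon within each library with a macrophage profile on log axes, 1 point per library, depleted in orange left of control in blue. Pira2 over Pirb is 0.625 to 1.50 in depleted skin libraries and 0.151 in control 3, while Fcgr2b over Fcgr3 spans 0.143 to 0.261 over all libraries shown.

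By signal per kilobase, the order of the members was similar in both organs at the top and differed below. In lung macrophages the median over 6 libraries was 5244 for Fcer1g, 3605 for Tyrobp, 1244 for Fcgr3, 226 for Fcgr2b, 106 for Fcgr4, 39.2 for Pirb, 26.8 for Fcgr1, 13.1 for Pira2 and 12.6 for Tarm1. Between neighbours in that order, the ranges of Fcer1g and Tyrobp overlapped, as did those of Fcgr2b and Fcgr4, of Pirb and Fcgr1, of Fcgr1 and Pira2, and of Pira2 and Tarm1. The steps from Tyrobp to Fcgr3, from Fcgr3 to Fcgr2b and from Fcgr4 to Pirb did not. In the 5 skin libraries with a macrophage profile the medians were 3285 for Fcer1g, 2197 for Tyrobp, 1477 for Fcgr3, 336 for Fcgr2b, 77.6 for Pirb, 63.1 for Pira2, 28.2 for Tarm1, 22.3 for Fcgr1 and 10.1 for Fcgr4. The ranges of the first 4 did not overlap each other or those below, while among the other genes each range overlapped with the next in order, except that the lowest Fcgr1 value (14.1) was above the highest Fcgr4 value (13.7). Control 3 ranked Pira2 at 8 and Tarm1 at 9, where the depleted libraries ranked Pira2 at 5 or 6 and Tarm1 at 7 or 8. Fcgr4 ranked 4 or 5 in each lung library and 7 to 9 in each skin library.

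Lung fibroblasts, sorted as cells lacking CD45, held these genes at up to 10 estimated reads a library, with Pirb as the exception. The 13 macrophage markers summed there to 329 to 698 in depleted and 209 to 424 in control libraries. Pirb had 42.5, 57.9 and 71.8 in depleted fibroblasts and 48.6, 80.1 and 80.4 in control fibroblasts, on 5.75 to 22.0 estimated reads a library. Its log2 fold change was -0.27 ± 0.40 and the groups overlapped. Pirb over Fcer1g per kilobase was 0.343 to 0.489 in depleted and 0.493 to 0.802 in control fibroblasts, against 0.00748 to 0.00987 in depleted and 0.00694 to 0.00728 in control macrophages. Pira2 was at 0 estimated reads in all 6 fibroblast libraries, where 3 reads would give a signal of 12.1 to 23.8 in depleted and 12.5 to 20.2 in control libraries. Fcgr2b had 10.2, 13.6 and 22.2 in depleted and 39.6, 14.4 and 24.2 in control fibroblasts (-0.69 ± 0.70), and Fcer1g had 17.0, 33.0 and 32.8 in depleted and 19.1, 31.8 and 19.6 in control fibroblasts (0.20 ± 0.61). Both overlapped, at under 10 estimated reads a library. Fcgr3 had 10.2, 29.1 and 36.3 in depleted and 18.3, 2.89 and 8.91 in control fibroblasts (1.36 ± 0.80), where control library 2 held no read and depleted library 1 was below control library 1. Without control library 2 its log2 fold change was 0.75. Tarm1, Fcgr1 and Fcgr4 had at most 2.02 estimated reads in any of these libraries. The depleted libraries all lay above the controls for 0 of 9 members and 4.94% of all genes, and all below them for 0 of 9 and 4.26%. limma called 0 of 9 members (0.00843% of 11866 genes), with 600 genes and 0 members below an unadjusted 0.05 and 0 called with voom weights. In the model of 4 lung groups, the response of 0 of 9 members differed between macrophages and fibroblasts at an adjusted limma p below 0.05. Of all genes 0.0169% did, and 0 members were called with voom weights. Below an unadjusted 0.05 were 1 member and 653 of 11866 genes. On simulated data this fit called 3% of genes changed 2-fold and 48% of genes changed 4-fold, so it could miss most differences of that size. Before the change, simulated macrophages and fibroblasts shared a common level for each gene. The members were far lower in fibroblasts than in macrophages, so those shares do not cover the members. Every lung macrophage library lay above every lung fibroblast library for 8 of 9 members, where 10.2% of genes did, and Tarm1 was the exception.

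Skin fibroblasts, more deeply sequenced, held 61.0 to 988 estimated reads of Fcgr2b a library. It had a signal of 40.6, 57.3 and 16.3 in depleted libraries 2, 4 and 5 and 4.17, 22.8 and 15.6 in control libraries 3, 4 and 5. Its log2 fold change was 1.45 ± 0.78, and the groups overlapped because depleted library 5 was below control library 4. Without control library 3 it was 0.80. Fcgr2b over Fcgr3 per kilobase was 1.93 to 18.1 in depleted and 0.330 to 7.03 in control fibroblasts, against 0.210 to 0.261 in depleted skin macrophages. Fcer1g had 3.86, 0.724 and 2.18 in depleted and 9.59, 2.001 and 1.05 in control fibroblasts (-0.43 ± 1.05), and Tyrobp had 2.09, 0.608 and 0.991 in depleted and 3.63, 0.506 and 1.11 in control fibroblasts (-0.19 ± 0.93). Control library 3 was the highest in both. Fcgr4 was at 0 estimated reads in all 6 libraries, where 3 reads would give a signal of 0.198 to 0.248 in depleted and 0.154 to 0.237 in control libraries. Pirb, the lung exception, had 0.0354, 0.296 and 0.140 in depleted and 0.943, 0.215 and 0.175 in control skin fibroblasts. Only Fcgr2b, Fcgr3, Fcer1g and Tyrobp passed the filter on low values, and limma called 0 of these 4 (0.0% of 11780 genes, 283 genes but none of the 4 below an unadjusted 0.05, and 0 with voom weights). The depleted libraries all lay above the controls for 0 of 9 members and 4.5% of all genes, and all below them for 0 of 9 and 3.93%. Every skin macrophage library with a macrophage profile lay above every skin fibroblast library for 9 of 9 members, where 11.1% of genes did.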

How the data were processed

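RNA was measured in 25 sorted mouse libraries, 12 from lung and 13 from skin. The authors deposited 1 table of normalised signal per gene for each organ. The submitters' processing notes name mm10 and, with no role or order, limma 3.46, RSEM 1.7.1, cutadapt 1.7.1 and CASAVA 1.8. The deposited signal of a gene equals its estimated reads plus 0.5, times a factor that is fixed within a library, so reads were recovered as estimates. They were whole within 0.01 for 70.0 to 82.2% of genes in lung libraries and 27.4 to 58.0% in skin libraries, and no count model was used. Genes at 0 made up 11.0 to 25.6% of lung and 1.89 to 22.2% of skin libraries. A row that names no gene, at most 0.00153% of the signal, was left out of the lung table.

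Comparisons used limma 3.58.1 (R 4.3.3) with a variance trend, on log2 of signal plus a pseudocount of 1 ppm of the mean library total (1.04 in lung, 1.001 in skin), 2-sided, with Benjamini-Hochberg adjustment over all genes and calls at an adjusted p below 0.05. Genes entered with at least 1 ppm of the library total in as many libraries as the smaller group has. This scale understates changes of low genes. The fit was tested on simulated data: for lung macrophages (11866 genes) it called 16% of genes changed 2-fold and 91% of genes changed 4-fold, and 0.926% of its calls were false. The changed genes were drawn only from those with a mean signal above that of Pira2 and Tarm1 in lung macrophages. Beyond counting noise, the simulated spread was the same for all genes. Those shares therefore do not cover low members such as Pira2 and Tarm1. The members and gene lists were chosen with earlier results of these data known. Named genes are the members, every list gene called, up to 4 of each list by lowest p in lung macrophages, and neutrophil, gate and fibroblast genes. 1 gene that this rule names is not reported here. Alternatives covered pseudocounts, filters, scaling, variance models, a model of 4 groups, a replicate block and leaving out each library. Sequences come from RefSeq windows. Limits from reads cover counting error only, while the members' intervals come from the limma SE and so from the spread between libraries.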

Additional observations from a re-analysis of the deposited data

How the results depend on the processing

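The members' lung macrophage directions held in every alternative except for Pira2 (turned in 3 of 16), Fcer1g (1 of 16) and Tyrobp (1 of 16). The main log2 fold changes of these genes were 0.20, -0.08 and -0.26, while Pirb, at 0.24, kept its sign. Genes called in lung macrophages numbered 59, and 38 at a pseudocount of 10 ppm, 27 after quantile normalisation, 0 without a variance trend, 118 with voom weights, 18 in a model of 4 groups and 11 to 70 leaving out 1 library each. Receptor system genes called there numbered 3, then 1 at that pseudocount and after quantile normalisation, 0 without a trend and in the model of 4 groups, and 0 to 4 leaving out 1 library. Lung fibroblast calls numbered 1, then 0 with a filter at 10 ppm, after quantile normalisation, without a trend and with 4 groups, 2 scaled to one total, 8 with voom, and 0 to 7 leaving out 1 library. Skin macrophage calls as labelled numbered 0, then 1 at the higher pseudocount, 45 without a trend, 975 with 4 groups, 693 at an adjusted p below 0.1, and 0 to 2908 leaving out 1 library, the highest without control library 3. Skin fibroblast calls were 0 to 16 leaving out 1 library, the highest without depleted library 2. Lung interaction calls numbered 2, then 12 at the higher pseudocount, 1 after quantile normalisation, 0 without a trend, 4 at an adjusted p below 0.1, and 1 to 6 leaving out 1 library. The cause of these shifts was not tested.

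In lung macrophages, lung fibroblasts and skin fibroblasts, depleted and control libraries of one number correlated at -0.051 to 0.063, so the numbers gave no sign of pairing. Skin macrophages, and macrophages against fibroblasts, were not checked. With replicate number as a block, calls were 67 in lung macrophages, 4 in lung fibroblasts, 84 in skin fibroblasts, 0 in skin macrophages and 2 for the interaction. In skin fibroblasts only numbers 4 and 5 occur in both groups, so that block fit compares only those libraries and its count is unreliable. Lung depth limits Pira2, Tarm1 and Fcgr1, with at most 19.9 estimated reads in any lung macrophage library. It also limits Fcgr4 (17.01 to 42 reads a library) and Pirb (24.53 to 42.35 reads). The skin macrophage comparison rests on 1 control with a macrophage profile.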

Other observations

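Fcrls, an Fc receptor-like scavenger gene that was listed with the other Fc receptors, had a signal of 366, 282 and 324 in depleted and 188, 271 and 151 in control lung macrophages, a log2 fold change of 0.70 ± 0.28 (limma adjusted p = 0.455). The depleted libraries were all above the controls. In skin it had 209, 199, 151 and 245 in depleted libraries and 66.1 in control 3, where it was also lowest among libraries with a macrophage profile. Control libraries 1 and 5, with their fibroblast profile, held 0.0557 and 0.0696 of Fcrls, 0.0186 and 0.162 of Lat2, and 0.0557 and 0.0232 of Clec4d. Lat2 had 138, 88.9 and 132.5 in depleted and 33.9, 34.5 and 74.2 in control lung macrophages, and 286, 167, 141 and 289 in depleted skin macrophages against 107 in control 3. Lat2 was not called in lung (adjusted p = 0.138). Clec4d, called lower in lung, had 29.5, 49.0, 63.8 and 95.8 in depleted skin macrophages and 90.5 in control 3, inside their range.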
